A study of Mus musculus with 12 samples.

Results

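Cells of RAW264.7, a macrophage-like line of the mouse transformed with Abelson leukaemia virus, were compared after 24 h in SCR medium and in normal medium. SCR medium was a 50:50 mixture of fresh RPMI with fetal bovine serum and medium in which SCR PyMT-41C cells had grown. SCR is the labels' name for the PyMT-41C cells that served beside JMJD6-knockout PyMT-41C cells, and the labels do not spell it out. The comparison rests on 6 of the 12 arrays of the series, 3 titled for SCR medium without CSH (replicates 1, 3 and 4) and 3 for normal medium (replicates 2, 3 and 4). The other 6 arrays are cells kept in KO medium, conditioned by the JMJD6-knockout PyMT-41C cells, and in SCR medium with CSH, a blocker of the annexin A1 receptor, 3 each. They enter the fit for the estimate of spread. The labels give no genetic change in the RAW264.7 cells themselves in any group. RAW264.7 is a single tumour-derived line, and the labels do not say whether replicates were separate cultures. What the p-values measure is therefore the spread among these arrays alone, and that spread may be technical. The genes described are the members of 77 lists of receptors, transporters, enzymes and transcription factors, 2574 tested genes in all. The signals are RMA values in log2 units, where 1 unit is a 2-fold difference, and differences are SCR minus normal medium each with its standard error (SE) from limma.

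Macrophages sense microbes and dying cells through surface and endosomal receptors, take up and degrade what they bind in acid lysosomes, and release lipid mediators, proteases and cytokines. Their growth and identity depend on colony-stimulating factor 1 acting through the receptor CSF1R, and on transcription factors such as PU.1, C/EBPα, IRF8 and MITF. Amino acid, metal and glucose transporters supply the enzymes that make nucleotides, glutathione and lipids, and these supplies shift when a macrophage meets a new environment.

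Of 18121 genes tested, 6371 (35.2%) changed at a Benjamini-Hochberg adjusted p below 0.05 in limma, with 3504 (19.3%) higher and 2867 (15.8%) lower in SCR medium, and the median over all genes was 0.02. At least 2-fold changes made up 1.42% of tested genes upward and 1.66% downward. Among the 13120 genes that passed a stricter filter on low signal, 25.9% were higher and 20.2% lower, which is the nearer comparison for lists of well-expressed genes. The arrays of the media did not overlap for 23.5% of tested genes upward and 19.7% downward. All 15 macrophage markers named on the array lay above their array's median in every array of both media, with a mean of 13.22 to 13.29 per array in normal medium and 13.07 to 13.2 in SCR medium. Of the same markers 7 of 15 were nevertheless lower (46.7%), led by Csf1r (-1.79) and Adgre1 (-1.45), and 4 higher, led by Cd53 (1.18) and Itgam (0.97). Of 20 mammary epithelial and tumour markers, 4 to 5 lay above the array median in normal medium and 5 to 6 in SCR medium, with array means of 5.02 to 5.03 and 5.01 to 5.09. For 10 neutrophil markers the numbers were 4 and 5, with array means of 5.8 to 5.83 and 5.86 to 6.01, and of 5 tested S100a8 rose (2.22, SE 0.21) and Csf3r fell (-1.43, SE 0.08). Lymphocyte and endothelial lists had at most 2 members above the median in either medium, and 0 of 6 fibroblast markers did. Of 12 osteoclast markers, 9 lay above the median in both media, and of 9 tested 3 rose, Atp6v0d2 (0.91), Mmp9 (0.64) and Car2 (0.6), and 3 fell, Dcstamp (-2.02), Nfatc1 (-0.55) and Tnfrsf11a (-0.51). The part of the other cell types' markers in the differences was not tested. In a bulk RNA measurement, fewer cells expressing a gene and less of its RNA per cell cannot be told apart. The genes named are the 4 largest rises and falls of each list, the 6 largest of each class and a fixed set of macrophage genes, and any others were named after their values were seen.

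Receptors as a class held 508 tested genes, of which 125 rose and 145 fell. Transporters held 385 (114 rose, 92 fell), enzymes 1058 (290 rose, 306 fell) and transcription factors with their cofactors 636 (115 rose, 129 fell). Receptors were called higher in 24.6% and lower in 28.5%, transporters in 29.6% and 23.9%, enzymes in 27.4% and 28.9%, and transcription factors in 18.1% and 20.3%. Over all genes tested these shares were 19.3% and 15.8%, and over genes passing the stricter filter 25.9% and 20.2%. The count of each list below is to be read beside these shares, since several lists lay near them. The lists within each class differed widely, from 12 of 21 subunits of the vacuolar proton pump higher to 12 of 25 glucose and monocarboxylate transporters lower.

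**Figure D1:**
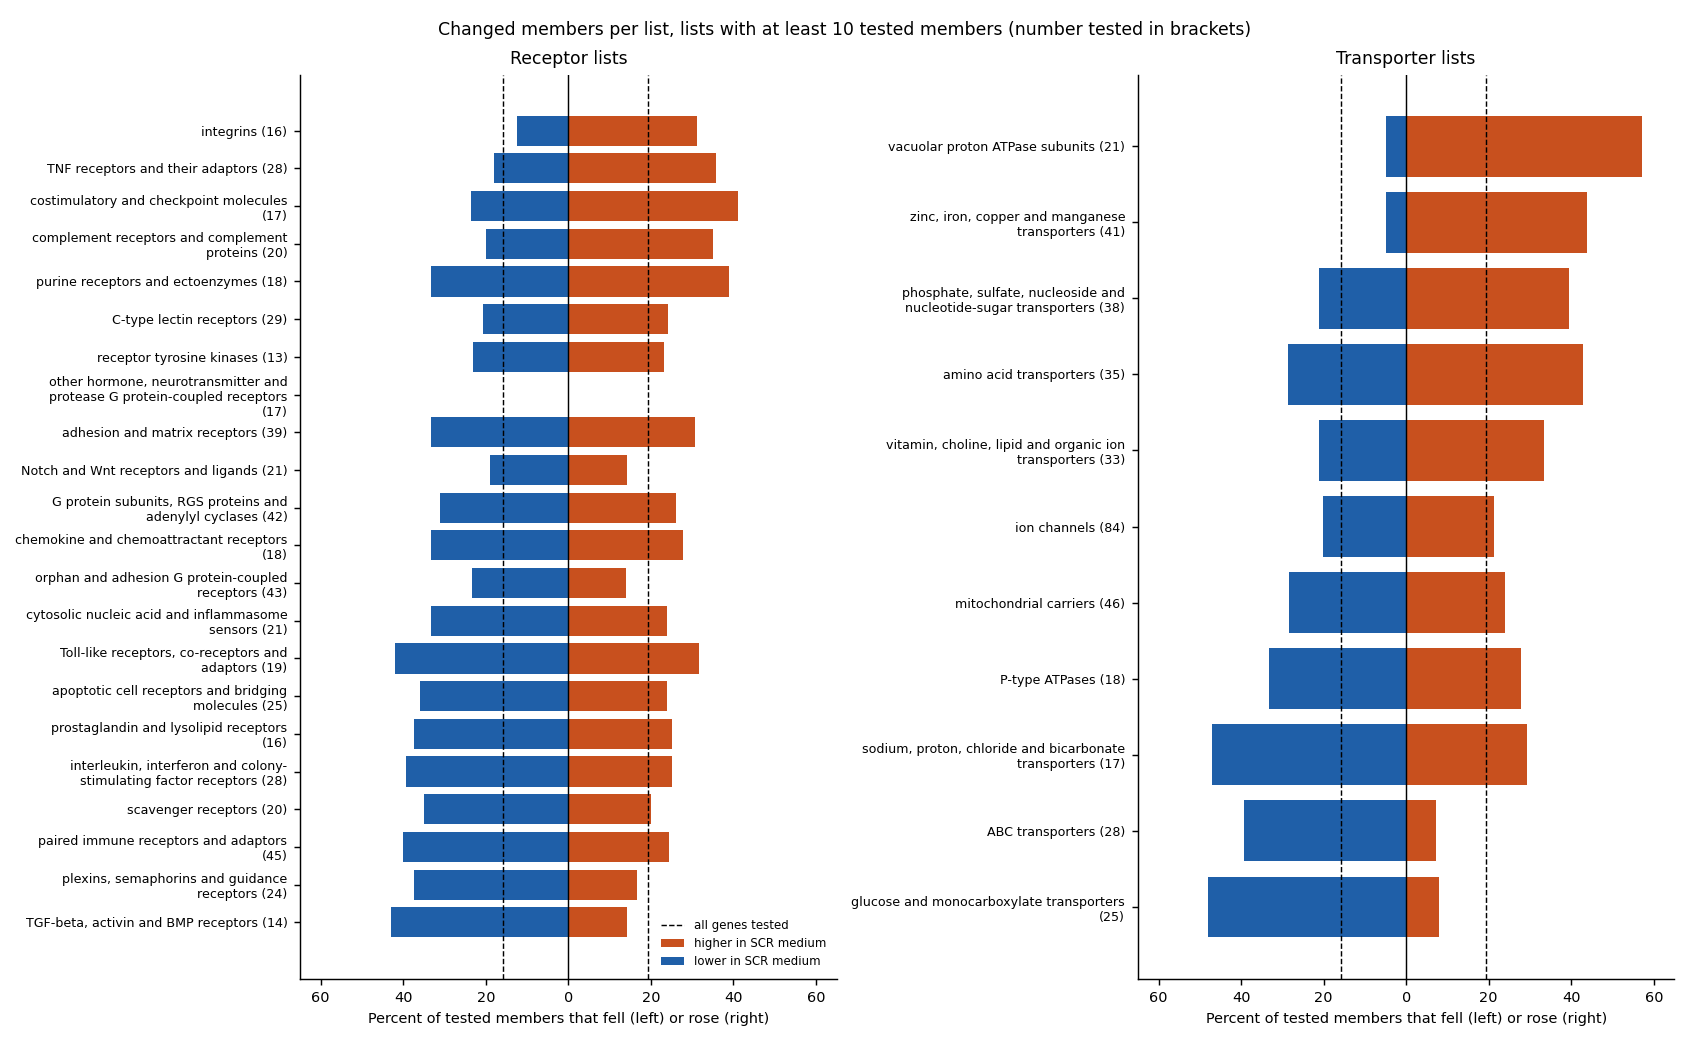
Percent of tested members that rose (right, orange) or fell (left, blue) in SCR medium for each receptor and transporter list with at least 10 tested members, with the number tested in brackets. Dashed lines mark the 19.3% and 15.8% of all genes tested, and the subunits of the vacuolar proton pump and the glucose and monocarboxylate transporters lie at opposite ends.

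The largest receptor rise was that of Ccr1, the receptor for the chemokines CCL3 and CCL5. Its arrays read 5.93, 6.74 and 6.37 in normal medium and 9.91, 9.87 and 10.11 in SCR medium. Fcgr1, the high-affinity receptor for IgG, read 10.72, 11.27 and 10.72 in normal medium and 13.78, 13.22 and 13.41 in SCR medium. The highest array of normal medium thus lay well below the lowest of SCR medium for both genes. Il4ra, the signalling subunit of the interleukin 4 and interleukin 13 receptors, read 8.06, 8.11 and 8.08 in normal medium and 10.49, 10.22 and 10.35 in SCR medium, a change of 2.27 (SE 0.08, adjusted p = 3.51e-09). Cd300lf, a lipid-binding receptor of the CD300 family, read 9.63, 9.35 and 9.65 in normal medium and 11.73, 11.68 and 11.81 in SCR medium. Plxna1, a receptor for class 6 semaphorins, was at 11.8, 11.88 and 11.87 in normal medium and 13.81, 13.44 and 13.76 in SCR medium. The media did not overlap in any of these genes, a condition of their choice, and Ccr1 had the widest spread within a medium. Tnfsf9, the membrane ligand 4-1BBL, stood at 10.66, 10.9 and 10.56 in normal medium and 12.56, 12.27 and 12.51 in SCR medium, a change of 1.74 (SE 0.11, adjusted p = 1.81e-07).

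Falls among receptors were led by Cd72, an inhibitory C-type lectin receptor of B cells and macrophages, which read 12.02, 11.86 and 11.88 in normal medium and 8.9, 8.89 and 8.93 in SCR medium. Cx3cr1, the receptor of fractalkine, read 12.73, 12.55 and 12.53 in normal medium and 9.91, 10.46 and 10.26 in SCR medium, with replicate 3 of SCR medium at the high end of its group. Clec12a, an inhibitory receptor that binds uric acid crystals, read 10.67, 10.51 and 10.18 in normal medium and 8.04, 8.23 and 8.28 in SCR medium. All of them fell by more than 2 log2 units. Ly86, which encodes MD-1, the partner of CD180, was at 13.09, 12.78 and 12.95 in normal medium and 10.96, 10.94 and 10.85 in SCR medium. Il6ra, the ligand-binding subunit of the interleukin 6 receptor, was at 11.53, 11.16 and 11.35 in normal medium and 9.44, 9.29 and 9.39 in SCR medium. Gas6, which bridges dying cells to TAM receptors and was listed with the receptors it serves, was at 9.77, 9.61 and 9.69 in normal medium and 7.76, 7.73 and 7.8 in SCR medium. For these genes too, the arrays of the media stood apart by several times the spread within a medium.

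**Figure D2:**
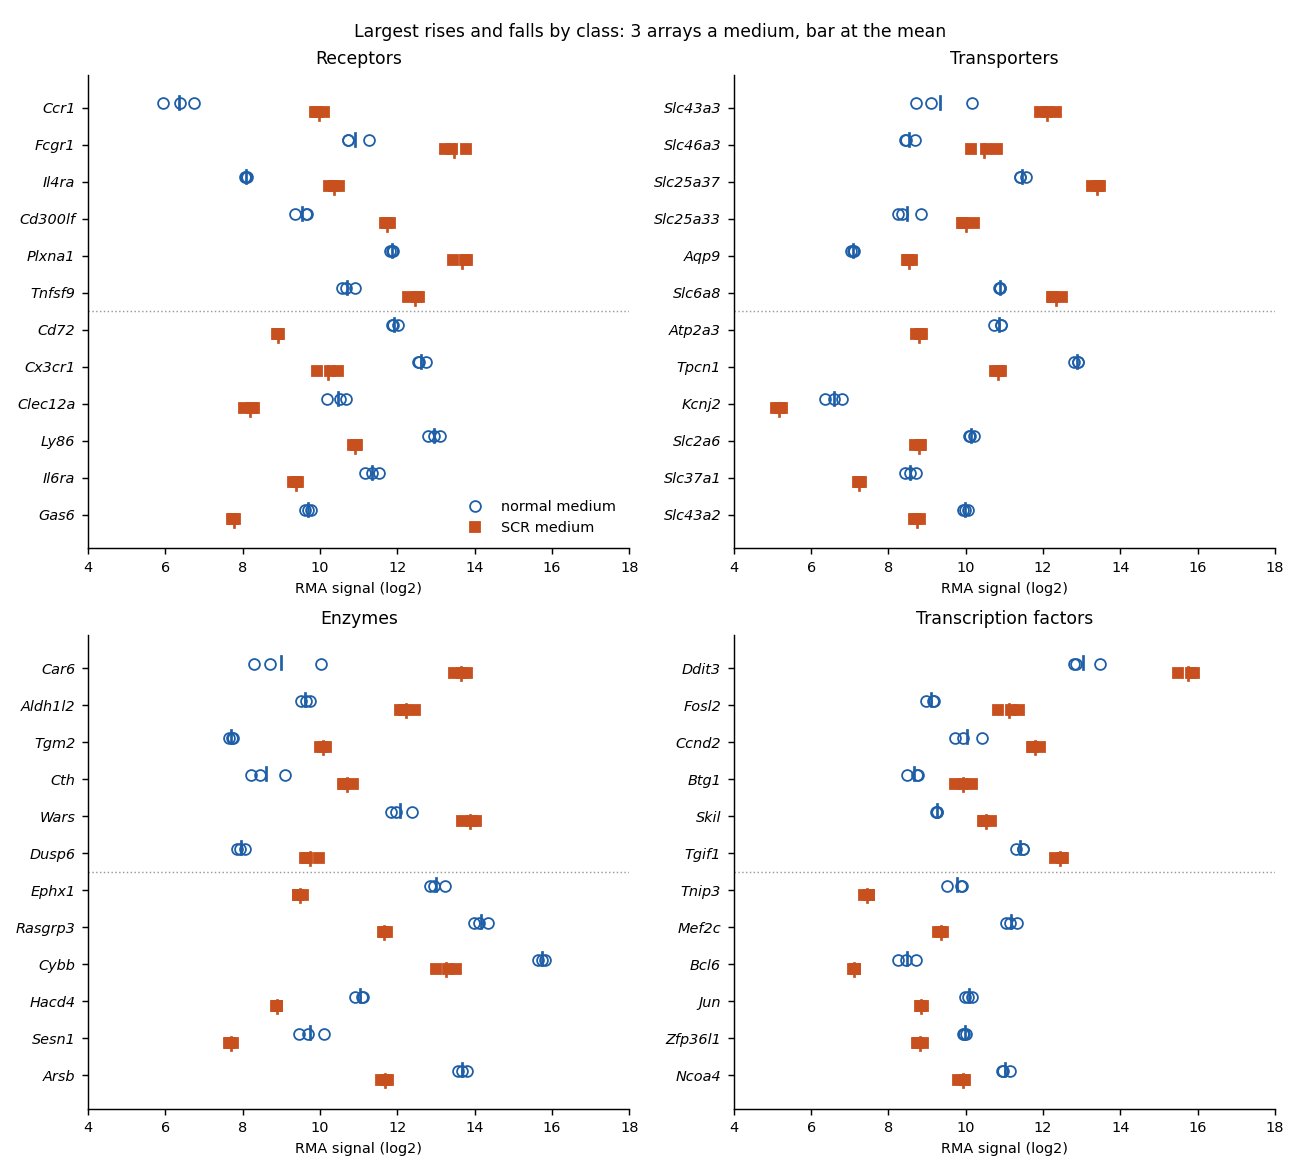
RMA signal (log2) on each array for the 6 largest rises (above the dotted line) and 6 largest falls (below) in each class, with normal medium as open blue circles, SCR medium as orange squares and a bar at each mean, n = 3 arrays a medium. Genes were chosen among those with no overlapping arrays. Car6 and Ccr1 show the largest differences between means.

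Among Toll-like receptors, Tlr4 and Tlr2, which act at the cell surface, rose, and Tlr7, Tlr9 and Tlr13, which act in endosomes, fell. Tlr4, the receptor of lipopolysaccharide, read 10.52, 10.63 and 10.62 in normal medium and 12.02, 11.89 and 12.13 in SCR medium, a change of 1.42 (SE 0.1, adjusted p = 4.81e-07), equal to 2.68-fold. Its co-receptor Cd14 rose by 0.61 (SE 0.1), Tlr2 by 0.51 (SE 0.1), and Ticam2, the adaptor that links TLR4 to TRIF, by 0.59 (SE 0.12). In the other direction Tlr9, which binds unmethylated DNA, read 7.96, 7.69 and 7.59 in normal medium and 6.22, 6.11 and 6.28 in SCR medium, and Tlr13, which binds bacterial ribosomal RNA, changed by -1.1 (SE 0.16). Of 19 tested genes of the list, 6 rose and 8 fell. Further members were the adaptors Myd88 (0.44) and Tirap (0.34) among the rises and Tlr7 (-1.05), Tlr1 (-0.94), Unc93b1 (-0.79), the chaperone that delivers endosomal receptors, and Ticam1 (-0.43) among the falls. Tlr1, which fell, is a surface receptor. Cd180, which with MD-1 restrains TLR4 signalling in macrophages, read 12.22, 11.97 and 12.06 in normal medium and 10.36, 10.26 and 10.38 in SCR medium. Tlr3 (0.14), Tlr6 (-0.04) and the TLR4 partner Ly96 (0.12) did not pass. Each of the 6 rises and 8 falls held with any single array of the 2 media left out.

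Cytosolic sensors detect microbial products inside the cell. Of 21 tested, 5 rose and 7 fell, the falls 4 with the stricter filter. Casp4, the mouse sensor of cytosolic lipopolysaccharide also called caspase 11, rose by 1.19 (SE 0.19), and Naip2, a sensor of bacterial secretion systems, by 0.66 (SE 0.07). Falls included the DNA sensor Aim2 (-0.71, SE 0.06), the inflammasome partner of NAIP proteins Nlrc4 (-0.59, SE 0.08) and the pore former Gsdmd (-0.43, SE 0.07). Nlrp3 (0.35), Casp1 (0.15) and Sting1 (-0.33) did not pass.

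Among receptors of growth factors and interleukins, 11 of 28 tested members fell and 7 rose, the rises 12 with array weights and 4 with the stricter filter. Csf1r, the receptor on which macrophage growth depends, read 13.83, 13.6 and 13.66 in normal medium and 11.83, 11.86 and 12.02 in SCR medium, a change of -1.79 (SE 0.16, adjusted p = 2.71e-06) and 3.47-fold lower. Csf3r, the receptor of granulocyte colony-stimulating factor, changed by -1.43 (SE 0.08), and Il10ra, the ligand-binding subunit of the interleukin 10 receptor, by -1.71 (SE 0.1). Il7r, the interleukin 7 receptor, changed by -1.21 (SE 0.16). Rises in the same list included Csf2ra, a subunit of the GM-CSF receptor, at 8.09, 8.22 and 7.99 in normal medium and 9.13, 8.8 and 8.99 in SCR medium, and Il17ra, which rose by 0.5 (SE 0.12). The type I interferon receptor genes Ifnar1 (0.1) and Ifnar2 (0.1) did not pass. Of 13 tested genes listed as receptor tyrosine kinases, 3 rose and 3 fell, the falls 1 with the stricter filter. Csf1r had the largest change of that list, and Lmtk2 (0.53, SE 0.1) and Ryk (0.48, SE 0.07) were among the rises.

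In the TNF receptor family 10 of 28 members rose and 5 fell. Tnfrsf9, the receptor for the 4-1BBL ligand named above, read 7.76, 7.82 and 7.57 in normal medium and 8.93, 9.14 and 9.29 in SCR medium. Tnfrsf26, a mouse decoy receptor, rose by 1.16 (SE 0.07), Tnfrsf12a, the receptor of TWEAK, by 0.81 (SE 0.13) and Cd40 by 0.7 (SE 0.12). Tnfrsf1b, the second TNF receptor, fell (-0.59, SE 0.1), as did Tnfrsf11a, the RANK receptor through which macrophages become osteoclasts (-0.51, SE 0.07). Costimulatory ligands meet receptors on T cells. Cd86, a ligand of CD28, read 7.63, 8.03 and 7.58 in normal medium and 9.55, 9.11 and 9.26 in SCR medium, and Cd274, the checkpoint ligand PD-L1, read 9.16, 9.15 and 9.21 in normal medium and 10.38, 10.22 and 10.48 in SCR medium. In both genes every SCR array lay more than 1 log2 unit above every normal array. Of 17 members 7 rose, and the 4 that fell included Vsir, the checkpoint molecule VISTA (-0.94, SE 0.13), and Nectin1 (-1.2, SE 0.11).

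Of 29 C-type lectin receptors, 7 rose (24.1%) and 6 fell (20.7%), near the 25.9% and 20.2% of genes passing the stricter filter. Clec4e, which encodes Mincle, the receptor of mycobacterial cord factor, read 13.37, 13.67 and 13.28 in normal medium and 15.0, 14.6 and 14.95 in SCR medium. Clec4d, its partner, rose by 1.35 (SE 0.1), Clec4n, which encodes Dectin-2, by 0.98 (SE 0.09) and the DAP12-coupled Clec5a by 1.22 (SE 0.13). Clec7a, which encodes the β-glucan receptor Dectin-1, read 9.87, 9.51 and 9.54 in normal medium and 8.48, 8.38 and 8.66 in SCR medium. The arrays of the media did not overlap for any of these lectins. Of the other Fc receptors for IgG, Fcgr4 fell (-0.39, SE 0.12), a call lost when an array was left out, and Fcgr3 (-0.11) and Fcgr2b (0.0) did not pass.

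Paired immune receptors come as activating and inhibitory members of related structure, and 18 of 45 fell and 11 rose. The TREM receptors went opposite ways. Trem1, which amplifies inflammatory signals, read 6.08, 6.22 and 6.06 in normal medium and 7.39, 7.81 and 7.67 in SCR medium, and Trem2, a lipid and lipoprotein receptor, read 11.98, 11.77 and 11.77 in normal medium and 10.57, 10.55 and 10.67 in SCR medium. Scimp, a transmembrane adaptor of TLR signalling, rose by 1.28 (SE 0.13) and Cd200r1, the receptor of CD200, by 0.94 (SE 0.08). Further members that fell were Cd300lg (-1.16, SE 0.08), the collagen receptor Lair1 (-1.06, SE 0.14) and Cd33 (-0.76, SE 0.14). Sirpa, the receptor of CD47, was at -0.05 and did not pass.

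**Figure D3:**
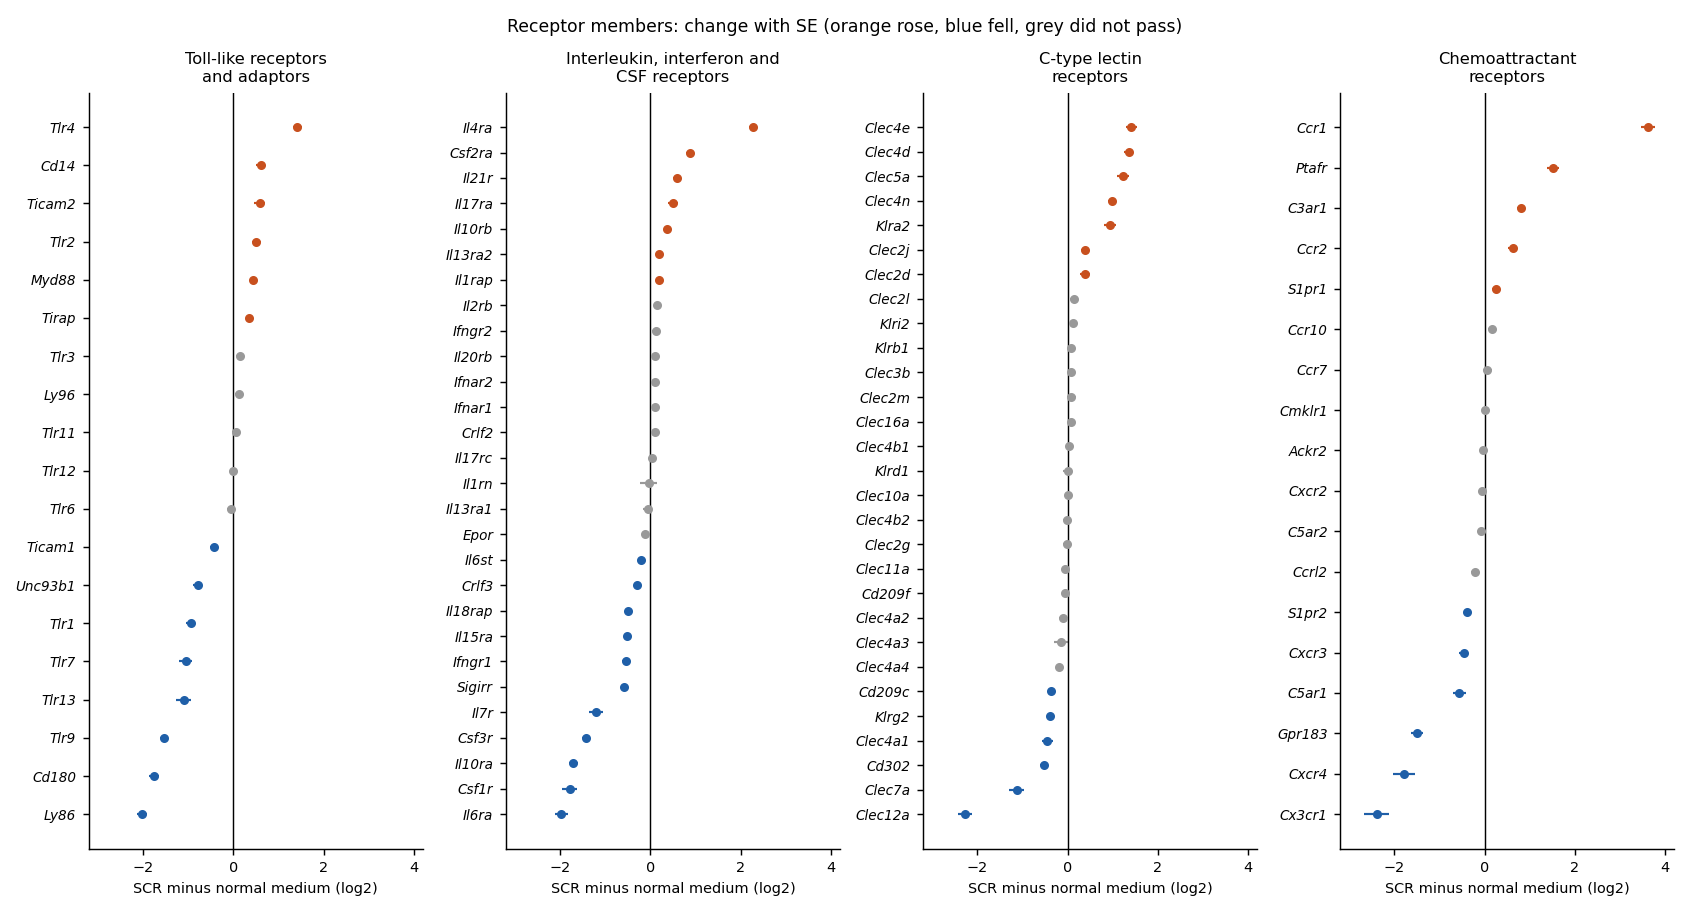
Log2 change (SCR minus normal medium) with its SE for every tested member of the lists of Toll-like receptors, interleukin, interferon and colony-stimulating factor receptors, C-type lectins and chemoattractant receptors. Orange members rose, blue members fell and grey members did not pass, with Tlr4 and Ly86, Il4ra and Il6ra, Clec4e and Clec12a, and Ccr1 and Cx3cr1 at or near the ends of their lists.

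Scavenger receptors bind modified lipoproteins and debris. Cd36 read 8.36, 8.15 and 8.02 in normal medium and 9.35, 9.1 and 9.25 in SCR medium, a change of 1.06 (SE 0.1, adjusted p = 4.95e-06), and Msr1 read 13.17, 13.05 and 13.11 in normal medium and 13.61, 13.75 and 13.95 in SCR medium. The arrays of the media did not overlap in either gene. Scarb1, which exchanges cholesterol with high-density lipoprotein, fell by 0.95 (SE 0.09), and Cxcl16, a membrane-bound chemokine that also binds oxidised lipoprotein, changed by -1.61 (SE 0.12). The rises numbered 4 and the falls 7 of 20 tested. Cd68 changed by -0.15 (SE 0.04), a call that was lost when an array was left out. Genes for taking up dying cells fell in 9 of 25 cases and rose in 6. P2ry6, the receptor of UDP that drives phagocytosis in microglia, read 9.53, 9.24 and 9.41 in normal medium and 7.74, 7.72 and 7.79 in SCR medium, and Dock1, an exchange factor that opens the phagocytic cup, changed by -0.6 (SE 0.09). Itgb5, the partner of the αv integrin in uptake, rose by 0.61 (SE 0.08) and its bridging molecule Mfge8 was among the falls (-0.53, SE 0.11). Mertk lay below the filter on low signal and was not tested.

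Of 16 integrin genes, 5 rose and 2 fell. Itgam, the α subunit of complement receptor 3, read 14.14, 13.92 and 14.03 in normal medium and 14.89, 15.01 and 15.09 in SCR medium, and its β subunit Itgb2 rose by 0.46 (SE 0.08). Itgb7 read 8.95, 8.91 and 9.11 in normal medium and 10.47, 10.2 and 10.26 in SCR medium, while Itga4, the α subunit it pairs with, read 13.8, 13.83 and 13.83 in normal medium and 12.43, 12.15 and 12.29 in SCR medium. Itgax, the α subunit of complement receptor 4, changed by -1.27 (SE 0.22). Complement genes rose in 7 of 20 cases and fell in 4, and Cfp, which encodes properdin, rose by 0.98 (SE 0.1). Adhesion molecules moved both ways (12 rose and 13 fell of 39). Pdpn, which encodes podoplanin, rose by 1.13 (SE 0.07) and the tetraspanin Cd53 by 1.18 (SE 0.05). Selplg, the ligand of P-selectin, read 10.83, 10.67 and 10.63 in normal medium and 9.18, 9.2 and 9.23 in SCR medium, and Icam1 changed by -0.81 (SE 0.11). Adgre1, a marker gene of mature mouse macrophages, read 11.29, 11.19 and 11.24 in normal medium and 9.78, 9.77 and 9.82 in SCR medium, a change of -1.45 (SE 0.09, adjusted p = 1.35e-07).

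Chemoattractant receptors other than Ccr1 and Cx3cr1 also separated. Ptafr, the receptor of platelet-activating factor, read 10.68, 10.68 and 10.65 in normal medium and 12.46, 11.85 and 12.24 in SCR medium, C3ar1, the receptor of complement C3a, rose by 0.8 (SE 0.08) and Ccr2, the receptor of CCL2, by 0.62 (SE 0.1). Cxcr4, the receptor of CXCL12, read 11.48, 11.18 and 11.35 in normal medium and 9.64, 9.45 and 9.54 in SCR medium. Gpr183, which senses oxysterols, changed by -1.5 (SE 0.13) and C5ar1, the receptor of complement C5a, by -0.56 (SE 0.14). Of 18 tested, 5 rose and 6 fell. Receptors of lipid mediators included a rise of the prostacyclin receptor Ptgir (1.34, SE 0.12) and falls of the lysophosphatidylserine receptor Gpr34 (-1.79, SE 0.13), the leukotriene receptor Cysltr1 (-1.65, SE 0.11) and the lysophosphatidic acid receptor Lpar6 (-1.17, SE 0.1). In that list the count of rises went from 4 of 16 to 2 without normal medium replicate 4. Among purine genes, Entpd5, a nucleoside diphosphatase of the endoplasmic reticulum, rose by 1.53 (SE 0.09), while Entpd1, which removes extracellular ATP as CD39, changed by -0.87 (SE 0.1).

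Of 43 orphan and adhesion receptors, 10 fell (23.3%) and 6 rose (14.0%), the falls 5 with the stricter filter. Called changes of at least 2-fold numbered 3 in each direction. Among the rises, Gprc5a read 5.76, 6.01 and 5.61 in normal medium and 7.42, 7.4 and 7.58 in SCR medium. Gpr84, a receptor of medium-chain fatty acids, rose by 1.23 (SE 0.2) and Gpr35 by 1.11 (SE 0.08). Plexins and semaphorins guide cell movement. The list of plexins, semaphorins and guidance receptors fell in 9 of 24 cases against 4 rises. Sema4g was at -1.71 (SE 0.11) and Plxdc1, also on that list, at -1.28 (SE 0.16), beside the rise of Plxnc1, the receptor of semaphorin 7A (0.86, SE 0.08). Receptors of the TGF-β family gave Nrros, which holds latent TGF-β on the macrophage surface, at -1.08 (SE 0.1), Tgfbr2 at -0.55 (SE 0.1) and Bmpr1a at 0.64 (SE 0.08). The count of falls there, 6 of 14, was 3 without SCR medium replicate 1 and also without normal medium replicate 2. Downstream of the G protein-coupled receptors, Rgs2, which shortens Gq signals, read 10.62, 10.19 and 10.35 in normal medium and 8.89, 8.85 and 8.89 in SCR medium, and Arrb1, which encodes β-arrestin 1, changed by -0.79 (SE 0.11), while the receptor kinase Grk5 rose by 1.15 (SE 0.08). By contrast, of 17 tested hormone, neurotransmitter and protease receptors, 0 passed in limma and 2 had an unadjusted p below 0.05, and without normal medium replicate 4 there was 1 fall.

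Among transporters, Slc43a3, a purine nucleobase transporter of a family that otherwise carries amino acids, read 8.71, 10.15 and 9.1 in normal medium and 12.33, 12.09 and 11.91 in SCR medium. Slc46a3, a lysosomal transporter, read 8.46, 8.68 and 8.43 in normal medium and 10.8, 10.14 and 10.51 in SCR medium. Slc25a37, which encodes mitoferrin 1, the carrier that brings iron into mitochondria for haem and iron-sulfur clusters, read 11.39, 11.56 and 11.4 in normal medium and 13.46, 13.27 and 13.43 in SCR medium. In each case the SCR arrays lay above all normal arrays, and Slc43a3 had the widest spread in normal medium. Slc25a33, a mitochondrial pyrimidine nucleotide carrier, rose by 1.54 (SE 0.14, adjusted p = 3.17e-06), the creatine transporter Slc6a8 by 1.45 (SE 0.1, adjusted p = 4.81e-07) and Aqp9, a channel for water and glycerol, by 1.45 (SE 0.07, adjusted p = 2.08e-08). The arrays of Slc25a33 read 8.24, 8.84 and 8.36 in normal medium and 10.22, 9.93 and 9.9 in SCR medium. Those of Slc6a8 read 10.88, 10.89 and 10.85 in normal medium and 12.48, 12.26 and 12.24 in SCR medium. Those of Aqp9 read 7.09, 7.04 and 7.11 in normal medium and 8.61, 8.47 and 8.5 in SCR medium, and in none of these genes did the media overlap.

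The falls were led by Atp2a3, the calcium pump SERCA3, which read 10.92, 10.74 and 10.91 in normal medium and 8.82, 8.7 and 8.87 in SCR medium. Tpcn1, a calcium and sodium channel of endosomes, read 12.89, 12.81 and 12.89 in normal medium and 10.9, 10.75 and 10.85 in SCR medium. Kcnj2, an inward rectifier potassium channel, read 6.35, 6.8 and 6.59 in normal medium and 5.1, 5.24 and 5.19 in SCR medium, with no overlap. Its SCR values were at low signal, below the medians of their arrays (5.4, 5.52 and 5.46). The gene passed the filter through arrays where it was higher. Slc2a6, a hexose transporter of the lysosome, changed by -1.36 (SE 0.13, adjusted p = 3.45e-06), Slc37a1, a sugar phosphate exchanger, by -1.33 (SE 0.09, adjusted p = 2.48e-07) and Slc43a2, which carries large neutral amino acids, by -1.26 (SE 0.1, adjusted p = 1.25e-06). Both calcium genes have a paralogue that rose. Atp2a2, which encodes SERCA2, rose by 1.0 (SE 0.07) as Atp2a3 fell, and Tpcn2 rose by 0.65 (SE 0.08) as Tpcn1 fell.

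Amino acid transporters rose in 15 of 35 cases and fell in 10. Slc7a11, which imports cystine for glutathione synthesis, read 11.02, 11 and 10.94 in normal medium and 12.39, 12.1 and 12.55 in SCR medium, a change of 1.36 (SE 0.09, adjusted p = 4.12e-07). Slc1a4, a transporter of alanine, serine and cysteine, rose by 1.33 (SE 0.12). Slc7a5 (0.72, SE 0.13) and its heavy chain Slc3a2 (0.51, SE 0.08), the importer of leucine, Slc7a1, which imports arginine (0.65, SE 0.08), and the glutamine carriers Slc1a5 (0.51, SE 0.1) and Slc38a2 (0.5, SE 0.07) rose as well. The transporters that fell included Slc15a4, the lysosomal histidine carrier that TLR7 and TLR9 signalling needs (-0.91, SE 0.07), the taurine transporter Slc6a6 (-0.82, SE 0.08) and Slc7a4 (-0.65, SE 0.07), along with Slc43a2.

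Genes whose products carry metals rose in 18 of 41 cases and fell in 2, 43.9% and 4.88%, with a list median of 0.13 against 0.02 for all genes. Slc30a9, a mitochondrial zinc transporter, read 10.71, 10.57 and 10.25 in normal medium and 11.74, 11.57 and 11.83 in SCR medium. Slc41a3, a magnesium carrier, rose by 0.93 (SE 0.1), Cnnm2, which takes part in magnesium transport, by 0.85 (SE 0.11) and Slc46a1, a folate and haem carrier, by 0.63 (SE 0.08). Zinc transporters of the ZIP family were among the rises. Slc39a7 (0.6), Slc39a9 (0.59), Slc39a10 (0.59), Slc39a14 (0.58) and Slc39a8 (0.52) were higher, as were the copper transporters Slc31a1 (0.49) and Slc31a2 (0.43). Atp13a2, a lysosomal polyamine pump listed with the metal pumps, and the ferrireductase Steap3 were the 2 falls (-0.82, SE 0.11, and -0.57, SE 0.08). The iron exporter Slc40a1 was at -0.06 and did not pass.

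The vacuolar proton pump acidifies lysosomes and consists of a membrane sector and a cytosolic sector. Of its 21 tested subunits, 12 rose and 1 fell, with a median of 0.2. Atp6v1g1 read 13.51, 13.51 and 13.43 in normal medium and 14.58, 14.35 and 14.32 in SCR medium. Atp6v0d2, a subunit found in macrophages and osteoclasts, read 11.55, 11.3 and 11.47 in normal medium and 12.44, 12.29 and 12.31 in SCR medium, Atp6v0a1 rose by 0.87 (SE 0.08) and Atp6v1c1 by 0.82 (SE 0.08). The catalytic subunit gene Atp6v1a was the one that fell, from 13.05 ± 0.03 to 12.76 ± 0.13 (change -0.28, SE 0.07). Genes of both sectors were among the rises.

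**Figure D4:**
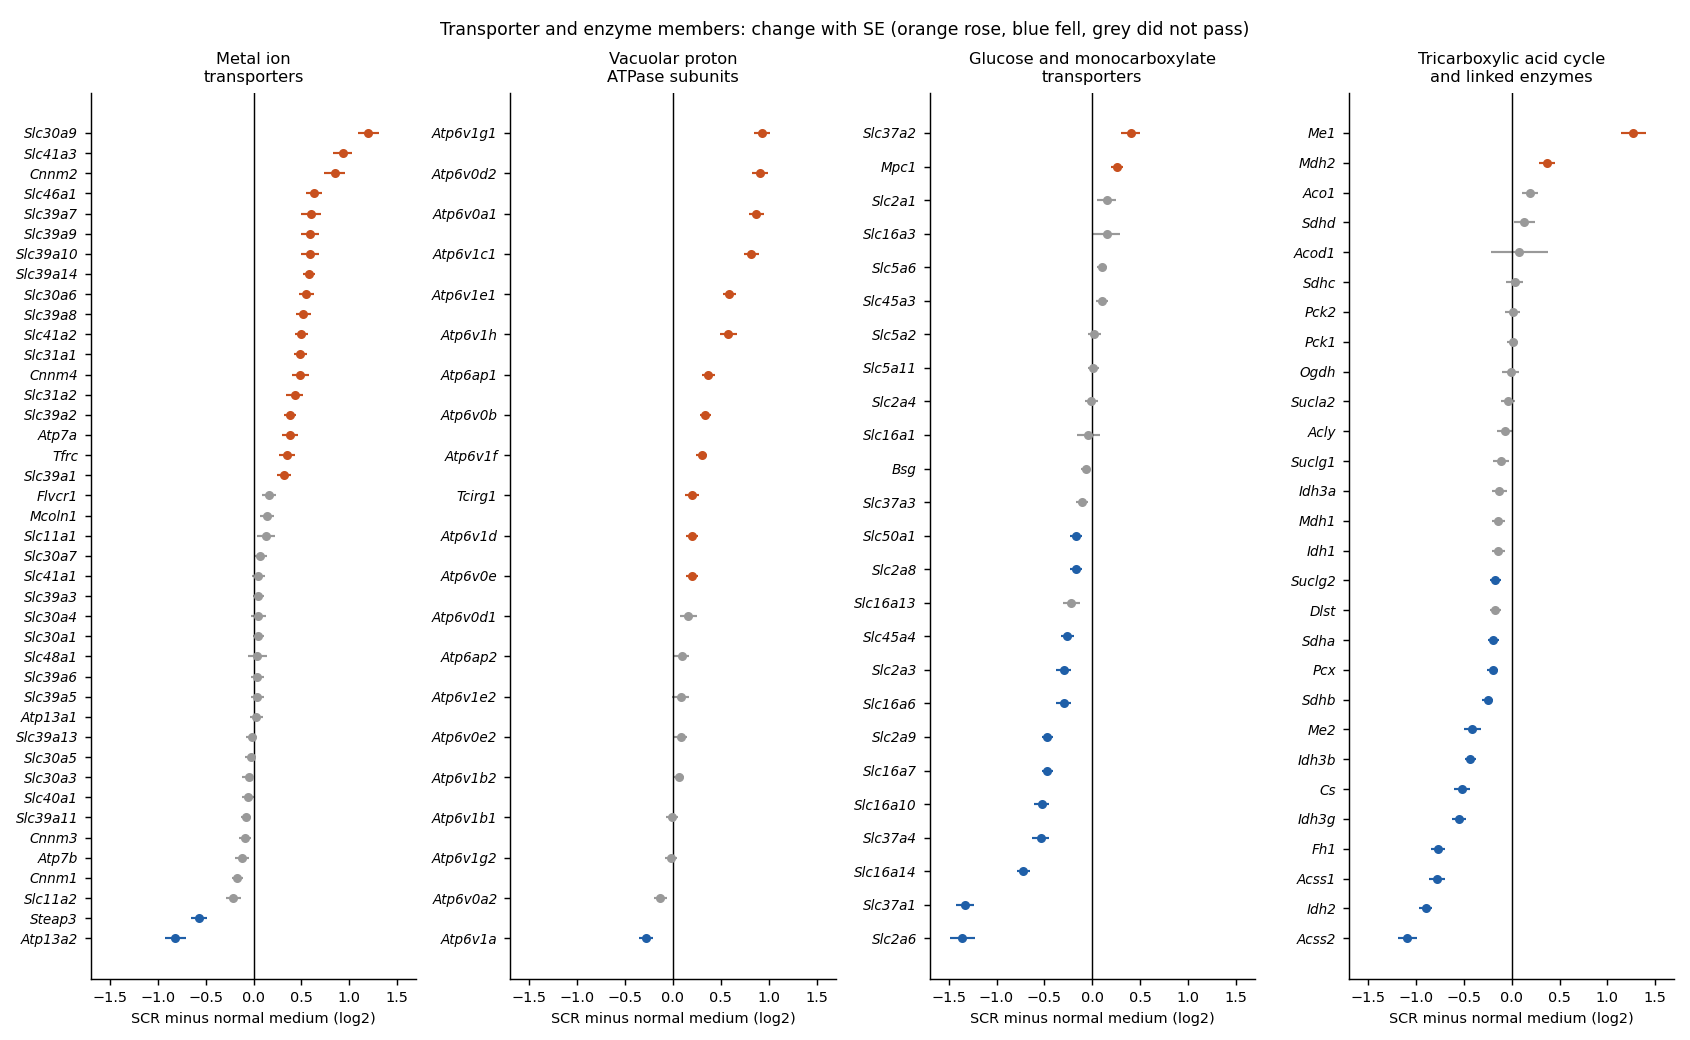
Log2 change (SCR minus normal medium) with its SE for every tested member of the lists of metal ion transporters, vacuolar proton ATPase subunits, glucose and monocarboxylate transporters, and tricarboxylic acid cycle and linked enzymes. Orange members rose, blue members fell and grey members did not pass. Most called members of the lists on the left lie right of 0 and most of those on the right lie left of it.

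Of 25 glucose and monocarboxylate transporters, 12 fell and 2 rose, with a median of -0.17. Besides Slc2a6 and Slc37a1, Slc16a14 (-0.72, SE 0.07) and Slc37a4, the glucose 6-phosphate carrier of the endoplasmic reticulum (-0.54, SE 0.09), fell. The main glucose importer Slc2a1 was at 0.15 (SE 0.1) and the lactate exporter Slc16a3 at 0.15, and neither passed. Mpc1, a subunit of the carrier that brings pyruvate into mitochondria, rose by 0.26 (SE 0.06). ABC transporters fell in 11 of 28 cases and rose in 2, a number that was 4 without SCR medium replicate 3 and 1 without SCR medium replicate 1, SCR medium replicate 4, normal medium replicate 3 or normal medium replicate 4. Abcd2, which takes very long chain fatty acids into peroxisomes, read 10.59, 10.59 and 10.35 in normal medium and 9.45, 9.22 and 9.45 in SCR medium, and the drug pump gene Abcb1b changed by -0.99 (SE 0.11). Abcg1, another exporter of cholesterol, changed by -0.47 (SE 0.09). Abca1, which loads cholesterol onto apolipoprotein A1, was at -0.2 (SE 0.11) and did not pass.

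Of 46 mitochondrial carriers, 11 rose (23.9%) and 13 fell (28.3%), beside 25.9% and 20.2% of genes passing the stricter filter. The rises numbered 7 without normal medium replicate 2. Slc25a10, the dicarboxylate carrier, fell from 8.5 ± 0.07 to 7.42 ± 0.06, and Slc25a13, an aspartate and glutamate carrier, changed by -0.73 (SE 0.08). Vdac3, a channel of the outer membrane, rose by 0.99 (SE 0.09). Transporters of phosphate and nucleotide sugars rose in 15 of 38 cases and fell in 8. The rises numbered 9 with median centring and 8 or 9 without SCR medium replicate 1 or normal medium replicate 4, and the falls 5 without SCR medium replicate 4. Slc20a1, a sodium phosphate cotransporter, rose by 1.05 (SE 0.13), and the nucleotide-sugar carriers Slc35d2 by 0.92 (SE 0.1) and Slc35b1 by 0.78 (SE 0.09). Slc29a1, the nucleoside transporter ENT1, fell (-0.65, SE 0.07). Of 17 carriers of sodium, protons, chloride and bicarbonate, 8 fell, among them Slc9a9 (-0.81, SE 0.08) and the sodium calcium exchanger Slc8a1 (-0.75, SE 0.06), and 5 rose. Ion channels had 18 rises and 17 falls of 84, or 21.4% and 20.2%, the falls 11 with the stricter filter. Clic1, an intracellular chloride channel protein, rose by 1.09 (SE 0.05). Cacna1a, a calcium channel subunit, changed by -1.23 (SE 0.08) and the endosomal channel Mcoln2 by -0.89 (SE 0.09).

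The largest enzyme change was in Car6, a secreted carbonic anhydrase, which read 8.28, 10.02 and 8.7 in normal medium and 13.79, 13.47 and 13.67 in SCR medium. Aldh1l2, the mitochondrial enzyme that oxidises 10-formyl-tetrahydrofolate, read 9.63, 9.73 and 9.5 in normal medium and 12.18, 12.07 and 12.45 in SCR medium. Tgm2, the transglutaminase that cross-links proteins and marks alternatively activated macrophages, read 7.73, 7.65 and 7.74 in normal medium and 10.01, 10.08 and 10.16 in SCR medium. For Car6 the normal arrays were spread over more than 1 log2 unit, and none came near the SCR arrays. Cth, which makes cysteine from cystathionine, read 8.22, 9.1 and 8.45 in normal medium and 10.85, 10.6 and 10.63 in SCR medium. Wars, the tryptophan tRNA synthetase, read 11.84, 12.38 and 11.96 in normal medium and 14.03, 13.68 and 13.94 in SCR medium. Dusp6, the phosphatase that inactivates ERK, read 7.94, 8.05 and 7.84 in normal medium and 9.66, 9.6 and 9.97 in SCR medium. Each of these genes had an adjusted p of at most 1.16e-06 in limma and no overlap of arrays.

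The enzyme falls were led by Ephx1, microsomal epoxide hydrolase, which read 13.22, 12.96 and 12.84 in normal medium and 9.43, 9.43 and 9.56 in SCR medium. Rasgrp3, an exchange factor that activates Ras after diacylglycerol binding, read 14.35, 13.99 and 14.12 in normal medium and 11.65, 11.62 and 11.72 in SCR medium. Cybb, the gp91phox subunit of the NADPH oxidase, read 15.75, 15.81 and 15.65 in normal medium and 12.99, 13.31 and 13.51 in SCR medium. In each case every SCR array lay more than 2 log2 units below every normal array. Hacd4, a dehydratase of fatty acid elongation, changed by -2.14 (SE 0.07, adjusted p = 2.17e-09), Sesn1, a leucine sensor that restrains mTORC1, by -2.06 (SE 0.13, adjusted p = 1.78e-07) and Arsb, the lysosomal arylsulfatase B, by -2.0 (SE 0.12, adjusted p = 1.63e-07). The arrays of Hacd4 read 11.08, 11.1 and 10.9 in normal medium and 8.89, 8.87 and 8.89 in SCR medium. Those of Sesn1 read 10.1, 9.46 and 9.68 in normal medium and 7.75, 7.64 and 7.67 in SCR medium. Those of Arsb read 13.8, 13.56 and 13.68 in normal medium and 11.57, 11.71 and 11.76 in SCR medium, and in none of these genes did the media overlap. Sesn2, the paralogue of Sesn1, rose from 9.0 ± 0.08 to 10.09 ± 0.21.

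**Figure D5:**
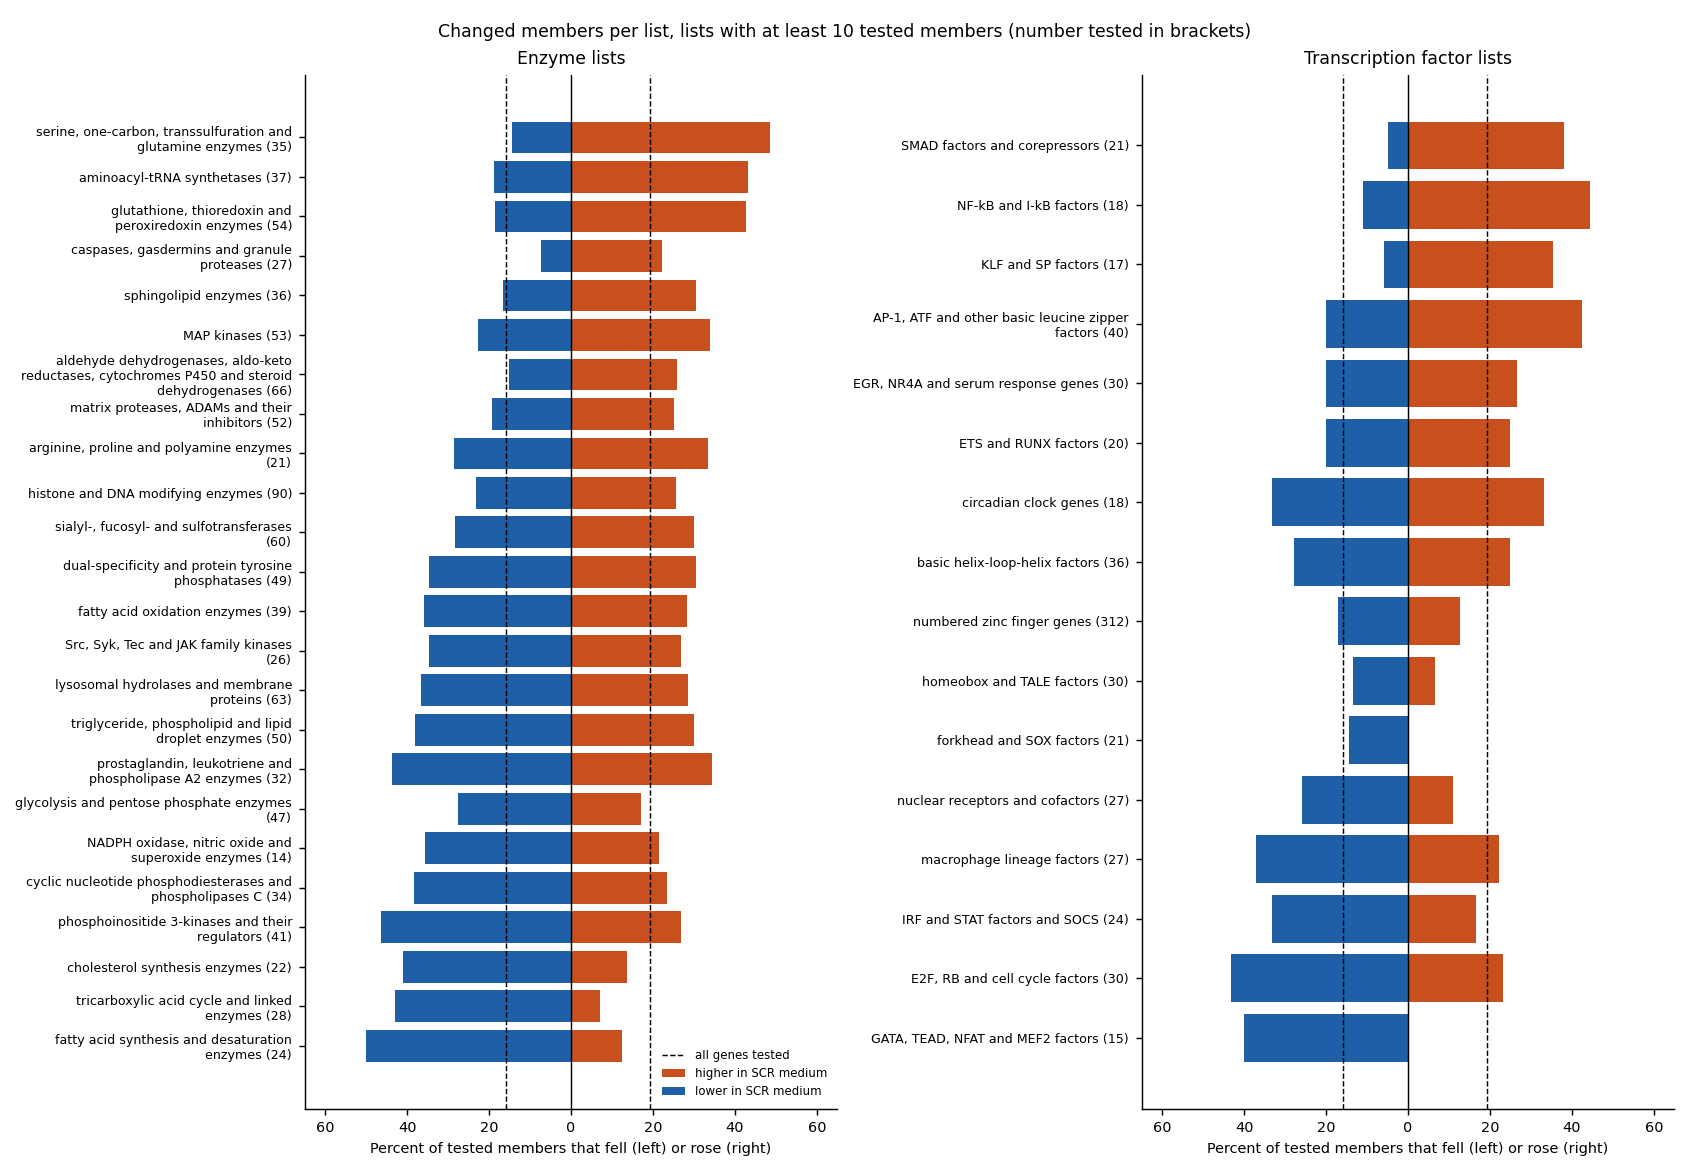
Percent of tested members that rose (right, orange) or fell (left, blue) in SCR medium for enzyme and transcription factor lists with at least 10 tested members (1 enzyme list is not shown), with the number tested in brackets. Dashed lines mark the 19.3% and 15.8% of all genes tested. One-carbon enzymes and SMAD factors lie at the top of their panels, fatty acid synthesis and the GATA, TEAD, NFAT and MEF2 factors at the bottom.

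Enzymes of serine, one-carbon, transsulfuration and glutamine metabolism rose in 17 of 35 cases and fell in 5. Mthfd2, the mitochondrial folate dehydrogenase, rose by 0.85 (SE 0.07) and Asns, asparagine synthetase, by 0.73 (SE 0.08). Mthfd1, the cytosolic counterpart, fell (-0.51, SE 0.1), and so did Ahcy, which clears S-adenosylhomocysteine (-0.54, SE 0.08). Shmt2 (0.0) and Psat1 (-0.11) did not pass. The tRNA synthetases rose in 16 of 37 cases. After Wars the largest were Lars (1.07, SE 0.09), Nars (0.66, SE 0.05) and Iars (0.64, SE 0.07). Kars, the lysine enzyme, read 14.1, 13.99 and 14.03 in normal medium and 13.26, 13.0 and 13.11 in SCR medium, and Qars, the glutamine enzyme, changed by -0.57 (SE 0.05) and Vars, the valine enzyme, by -0.34 (SE 0.08) among the 7 members that fell.

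The promoters of 3 risen genes of amino acid supply are shown as examples. They were chosen for holding TGATGNAA, where N is any base, the composite element bound by C/EBP and ATF factors. The windows cover the 250 bases before the RefSeq start on GRCm38.p6, the assembly also called mm10, and both strands were searched, and sequences read 5′ to 3′ in the direction of the gene. Capitals mark the matches, also where the match is the reverse complement, which lie 66 and 47 bases before the start in Slc7a11, 23 in Asns and 102 in Got1, an aspartate aminotransferase that rose by 0.41 (SE 0.09). The windows are chr3:50443614-50443863 for Slc7a11, chr6:7693210-7693459 for Asns and chr19:43524606-43524855 for Got1, all on the minus strand.
Slc7a11: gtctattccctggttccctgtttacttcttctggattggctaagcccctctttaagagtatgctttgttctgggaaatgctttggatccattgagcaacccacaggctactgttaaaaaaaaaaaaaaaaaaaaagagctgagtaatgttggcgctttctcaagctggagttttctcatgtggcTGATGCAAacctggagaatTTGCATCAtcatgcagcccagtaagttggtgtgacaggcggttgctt
Asns: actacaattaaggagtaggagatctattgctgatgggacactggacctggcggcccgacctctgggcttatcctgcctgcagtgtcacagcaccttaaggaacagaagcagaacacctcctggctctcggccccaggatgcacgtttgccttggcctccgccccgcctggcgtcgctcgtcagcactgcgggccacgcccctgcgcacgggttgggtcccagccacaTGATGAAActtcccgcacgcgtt
Got1: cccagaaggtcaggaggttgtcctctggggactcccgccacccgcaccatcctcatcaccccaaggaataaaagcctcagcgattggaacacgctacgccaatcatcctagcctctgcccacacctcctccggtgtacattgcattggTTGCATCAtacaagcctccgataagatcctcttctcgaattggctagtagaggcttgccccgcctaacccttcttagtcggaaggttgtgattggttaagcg
Of the amino acid transporter and one-carbon genes that rose and had a window, 3 of 24 held the motif (12.5%), and of those that fell or did not pass, 1 of 31 (3.23%). For tRNA synthetases the numbers were 2 of 11 and 0 of 17. The share was 2.48% of the 10446 windows of all tested genes, 6.21% of 177 windows of genes at least 2-fold higher and 1.74% of 230 of genes at least 2-fold lower. The interferon-stimulated response element, searched on both strands, also stood at 6.21% of the 2-fold higher genes, against 2.71% of all and 2.61% of the 2-fold lower. The antioxidant core TGACNNNGC was in 13% of the 2-fold higher, 11.3% of the 2-fold lower and 11.6% of all windows, the AP-1 site TGANTCA in 6.78%, 7.39% and 4.88%, and the E-box CACGTG in 10.2%, 7.83% and 8.05%. TGACGT, the core of the cyclic AMP response element, which can share bases with TGACNNNGC, was in 9.04%, 6.52% and 9.71%. GAGGAA, the core bound by PU.1, was in 27.7%, 27.8% and 22.5%. In the 24 risen amino acid transporter and one-carbon genes, TGACNNNGC stood at 20.8% and TGANTCA at 16.7%, against 6.45% and 9.68% of the 31. The E-box stood at 4.17% and 9.68%. For tRNA synthetases the E-box was in 2 of 11 and 0 of 17. TGACNNNGC (9.09% and 23.5%) and TGANTCA (0% and 5.88%) were rarer in those that rose. TGATGNAA was thus not the only motif with a higher share in risen genes. A match is a description of these letters and was not tested as a binding site.

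Redox enzymes rose in 23 of 54 cases and fell in 10. Gsto1, an omega glutathione transferase, read 8.48, 8.7 and 8.44 in normal medium and 10.42, 10.09 and 10.25 in SCR medium. Nqo2 rose by 1.22 (SE 0.12), Chac1, which degrades glutathione, by 1.11 (SE 0.11) and Txnrd1, thioredoxin reductase, by 1.06 (SE 0.13). Hmox1, which breaks down haem, read 11.45, 11.18 and 11.03 in normal medium and 12.23, 12.08 and 12.5 in SCR medium. The transferases of the mu and pi classes were among the falls, with Gstm1 at -0.91 (SE 0.13), Gstm3 at -0.44 (SE 0.08) and Gstp1 at -0.43 (SE 0.05), as was biliverdin reductase A, Blvra (-0.68, SE 0.05), which acts after Hmox1. Apart from Cybb, the oxidase list gave a rise of Gch1, which makes the cofactor of nitric oxide synthases (1.66, SE 0.1), and of Ncf4 (0.45, SE 0.06), and falls of the oxidase subunit Ncf1 (-0.53, SE 0.12) and of Sod1 (-0.59, SE 0.05). Nos2 (0.19, SE 0.15), Sod2 (-0.05, SE 0.06) and the oxidase partner Cyba (0.02) did not pass.

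In the tricarboxylic acid cycle list, 12 of 28 fell and 2 rose, with a median of -0.14. Acss2, which makes acetyl-CoA from acetate, read 7.67, 7.24 and 7.47 in normal medium and 6.32, 6.36 and 6.43 in SCR medium. Idh2 changed by -0.9 (SE 0.07) and Fh1, fumarate hydratase, by -0.77 (SE 0.07). The rises were Me1, the malic enzyme that makes NADPH (1.27, SE 0.13), and Mdh2 (0.37, SE 0.08). Glycolysis and pentose phosphate genes had 13 falls and 8 rises of 47, the latter 5 without normal medium replicate 4. The falls were led by Aldoc (-0.97, SE 0.1) and the phosphofructokinase Pfkp (-0.85, SE 0.12), while Rpe, of the pentose phosphate path, rose by 1.04 (SE 0.1). Gapdh (0.02), Pgk1 (-0.04) and Ldha (0.17) did not pass.

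Of 24 genes of fatty acid synthesis and desaturation, 12 fell and 3 rose, with a median of -0.18. Fads2, the Δ6 desaturase, read 14.09, 13.7 and 13.71 in normal medium and 12.11, 11.79 and 12.29 in SCR medium, Scd1, the Δ9 desaturase, changed by -0.78 (SE 0.1), and Acsl5 by -0.72 (SE 0.09). Fasn, fatty acid synthase, changed by -0.65 (SE 0.16). Acsl4, which activates arachidonic acid, rose from 11.9 ± 0.13 to 13.19 ± 0.09. Like Acsl5 it is an acyl-CoA synthetase that was counted on this list. The rises numbered 5 without SCR medium replicate 3 or normal medium replicate 3. Cholesterol synthesis had 9 falls and 3 rises of 22. Cyp27a1, the sterol 27-hydroxylase, changed by -1.04 (SE 0.09) and was counted in that list, though it oxidises cholesterol and does not make it. The mevalonate enzymes Pmvk and Mvd changed by -0.76 (SE 0.07) and -0.6 (SE 0.09), while Hsd17b7 rose by 0.93 (SE 0.11). Fatty acid oxidation genes had 14 falls and 11 rises of 39, the rises 7 without normal medium replicate 4 and with median centring. Cpt1a, which commits fatty acids to mitochondrial oxidation, read 12.39, 12.57 and 12.42 in normal medium and 11.1, 10.99 and 10.89 in SCR medium, and the peroxisomal oxidase Acox3 changed by -1.41 (SE 0.14). In the triglyceride list, Lpl, lipoprotein lipase, fell from 9.84 ± 0.36 to 8.08 ± 0.05, and Hilpda, which inhibits the lipase ATGL, rose from 13.21 ± 0.19 to 14.6 ± 0.12. Sphingolipid genes had 11 rises and 6 falls of 36. Sphk2, a sphingosine kinase, rose by 1.28 (SE 0.1) and the palmitoyltransferase subunits Sptlc2 and Sptlc1 by 0.67 (SE 0.09) and 0.55 (SE 0.07), while Smpdl3b, which acts on membrane sphingolipids, changed by -1.68 (SE 0.15).

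Eicosanoids are lipid mediators made from arachidonic acid. Pla2g4a, the phospholipase that frees arachidonic acid, read 11.54, 11.95 and 11.42 in normal medium and 13.35, 13.05 and 13.1 in SCR medium. Ptges, which makes prostaglandin E2, rose by 0.65 (SE 0.12). On the leukotriene side the falls included Alox5 (-0.8, SE 0.14), Ltc4s (-0.66, SE 0.11) and Alox5ap (-0.46, SE 0.07). Mgst2, which can make leukotriene C4, read 12.08, 12.09 and 12.18 in normal medium and 10.05, 10.22 and 10.3 in SCR medium, and Mgst3 changed by -1.87 (SE 0.11). Daglb, which makes the endocannabinoid 2-arachidonoylglycerol, changed by -1.68 (SE 0.08), and Hpgds, the haematopoietic prostaglandin D synthase, by -1.28 (SE 0.1). The list counted 11 rises and 14 falls of 32. Ptgs2, the inducible cyclooxygenase, was at 0.12 (SE 0.09) and did not pass.

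Of 63 tested lysosomal hydrolases and membrane proteins, 18 rose and 23 fell. Ctsf, a cathepsin, read 10.37, 10.28 and 10.44 in normal medium and 8.83, 8.6 and 8.78 in SCR medium, Prcp, a carboxypeptidase, changed by -1.29 (SE 0.07) and Man2b1, the α-mannosidase, by -1.28 (SE 0.09). Ctsl, cathepsin L, rose by 0.81 (SE 0.06), the carboxypeptidase Scpep1 by 1.11 (SE 0.07) and Npc1, which releases cholesterol from the lysosome, by 1.0 (SE 0.09). Ctsb (0.06), Lamp1 (0.07) and Psap (0.02) did not pass. Outside the lysosome, the heparan sulfate cleaving enzyme Hpse read 13.53, 13.15 and 13.44 in normal medium and 11.38, 11.25 and 11.51 in SCR medium, and Serpinb8, a protease inhibitor, changed by -1.94 (SE 0.07). Mmp12, macrophage elastase, rose by 0.99 (SE 0.15), Adam8 by 0.82 (SE 0.1) and Adam17, the protease that releases TNF, changed by -0.83 (SE 0.07).

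Signals from immune receptors pass through tyrosine kinases and phosphoinositides. Of 26 genes of the Src, Syk, Tec and JAK families and their adaptors, 9 fell, among them Fgr (-1.4, SE 0.12), Tec (-1.25, SE 0.12), Ptk2b (-1.18, SE 0.11) and the adaptor Blnk (-1.18, SE 0.08), and 7 rose, led by Jak2 at 8.99, 9.11 and 8.9 in normal medium and 10.24, 9.94 and 10.09 in SCR medium. Phosphoinositide 3-kinases and their regulators had 19 falls and 11 rises of 41. The leukocyte catalytic subunit gene Pik3cd changed by -1.02 (SE 0.07), the mTOR inhibitor Deptor by -1.21 (SE 0.08), and Inpp5d, which encodes the lipid phosphatase SHIP1, by -0.96 (SE 0.1). Phospholipase C genes Plcb4 (-1.01, SE 0.08) and Plcb2 (-1.0, SE 0.15) also fell. Among phosphatases, Ptpn6, which encodes SHP-1, read 11.6, 11.38 and 11.53 in normal medium and 10.22, 10.14 and 10.05 in SCR medium, and the receptor-type Ptpra and Ptpre changed by -1.23 (SE 0.09) and -1.15 (SE 0.1). Other MAP kinase phosphatase genes that rose were Dusp1 (1.23, SE 0.08), Dusp16 (1.02, SE 0.07) and Dusp4 (0.9, SE 0.14), while Dusp5 (0.45) and Dusp10 (0.1) did not pass. Of the MAP kinase list, 18 of 53 rose and 12 fell. Map2k1, the kinase of ERK, rose by 0.92 (SE 0.07) and Map3k5 by 0.98 (SE 0.08), while Map3k1 changed by -1.44 (SE 0.1) and Mapkapk2, the effector of p38, by -0.78 (SE 0.08).

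The list of sialyl-, fucosyl- and sulfotransferases changed in both directions (18 rose, 17 fell of 60). Of the 4 largest falls, 3 were in sialyltransferases. St3gal5, which makes the ganglioside GM3, read 10.48, 9.91 and 9.86 in normal medium and 8.43, 8.37 and 8.49 in SCR medium, St3gal6 changed by -1.59 (SE 0.15) and St6gal1 by -1.01 (SE 0.1), while St3gal3 rose by 1.28 (SE 0.13). Among enzymes that modify DNA and histones, the maintenance methyltransferase gene Dnmt1 read 11.33, 11.15 and 11.08 in normal medium and 9.76, 9.76 and 9.78 in SCR medium, Dnmt3a changed by -0.98 (SE 0.09), Kmt5c by -0.81 (SE 0.06) and the DNA demethylation enzyme gene Tet2 by -0.68 (SE 0.09). Parp4 (1.14, SE 0.1) and Kdm4a (0.83, SE 0.1) rose. Of 90 genes on that list 23 rose (25.6%) and 21 fell (23.3%), near the 25.9% and 20.2% of genes passing the stricter filter. The rises numbered 12 without SCR medium replicate 1 or normal medium replicate 4, 13 without SCR medium replicate 4 and 12 under median centring. In arginine metabolism, Arg1 read 6.16, 5.95 and 5.99 in normal medium and 6.63, 6.98 and 7.13 in SCR medium and Arg2 rose by 0.79 (SE 0.13), whereas Gatm, which uses arginine to start creatine synthesis, fell (-0.82, SE 0.08). The rises there were 7 of 21, 4 without SCR medium replicate 1, normal medium replicate 2 or normal medium replicate 4. Car12, a membrane carbonic anhydrase, fell (-1.09, SE 0.16) as Car6 rose.

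Among transcription factors and the regulators listed with them, Ddit3, which encodes CHOP, the stress factor that dimerises with C/EBP proteins, read 12.84, 13.47 and 12.79 in normal medium and 15.89, 15.5 and 15.83 in SCR medium. Fosl2, an AP-1 subunit, read 9.19, 9.15 and 8.97 in normal medium and 11.17, 10.83 and 11.37 in SCR medium. Ccnd2, cyclin D2, listed with the E2F and RB genes, read 9.72, 10.42 and 9.93 in normal medium and 11.92, 11.7 and 11.74 in SCR medium. In all of them the arrays of the media did not overlap. Btg1, an antiproliferative cofactor, rose by 1.28 (SE 0.12, adjusted p = 3.45e-06), and the SMAD corepressor genes Skil by 1.27 (SE 0.07, adjusted p = 8.72e-08) and Tgif1 by 1.02 (SE 0.07, adjusted p = 4.53e-07). The arrays of Btg1 read 8.76, 8.73 and 8.48 in normal medium and 9.94, 9.71 and 10.15 in SCR medium. Those of Skil read 9.25, 9.24 and 9.25 in normal medium and 10.65, 10.44 and 10.47 in SCR medium. Those of Tgif1 read 11.29, 11.48 and 11.47 in normal medium and 12.51, 12.3 and 12.5 in SCR medium, and in none of these genes did the media overlap. Tnip3, an inhibitor of NF-κB signalling, read 9.88, 9.89 and 9.51 in normal medium and 7.49, 7.36 and 7.49 in SCR medium, the largest fall. Mef2c, a factor of the MADS family, read 11.32, 11.15 and 11.04 in normal medium and 9.42, 9.28 and 9.35 in SCR medium. Bcl6, a repressor, read 8.71, 8.45 and 8.24 in normal medium and 7.14, 7.13 and 7.09 in SCR medium. All of these falls were more than 1 log2 unit. Jun, an AP-1 subunit, changed by -1.22 (SE 0.17, adjusted p = 8.34e-05), the RNA decay factor gene Zfp36l1 by -1.16 (SE 0.11, adjusted p = 3.25e-06) and Ncoa4, which delivers ferritin for degradation, by -1.09 (SE 0.07, adjusted p = 2.45e-07). The arrays of Jun read 10.05, 9.99 and 10.17 in normal medium and 8.81, 8.89 and 8.84 in SCR medium. Those of Zfp36l1 read 10.0, 9.96 and 9.94 in normal medium and 8.75, 8.76 and 8.9 in SCR medium. Those of Ncoa4 read 11.14, 10.93 and 10.95 in normal medium and 9.99, 9.81 and 9.96 in SCR medium, and in none of these genes did the media overlap.

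Factors of the macrophage lineage fell in 10 of 27 cases and rose in 6. Mitf, which drives lysosome and osteoclast genes, read 11.36, 11.15 and 11.18 in normal medium and 10.28, 10.22 and 10.35 in SCR medium. Fli1 changed by -0.74 (SE 0.09), Bach1, a haem-sensing repressor, by -0.73 (SE 0.07), Cebpa by -0.57 (SE 0.1) and Irf8 by -0.46 (SE 0.08). Spi1, which encodes PU.1, read 9.34, 9.26 and 9.36 in normal medium and 9.3, 9.09 and 9.31 in SCR medium, a difference of -0.09 (SE 0.08) that did not pass. Tfeb, which drives lysosome genes, changed by -0.31 (SE 0.05). Rises were led by the inhibitor Id2 (0.69, SE 0.11), Cebpg (0.49, SE 0.07) and Tfec (0.44, SE 0.08), and Cebpb, at 0.25 (SE 0.08), lost its call when an array was left out. Maf and Pparg lay below the filter and were not tested.

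Basic leucine zipper factors rose in 17 of 40 cases and fell in 8. After Ddit3 and Fosl2 came Crem, a cyclic AMP responsive factor (0.91, SE 0.1), and Nfe2l1, which drives proteasome genes (0.73, SE 0.07). Atf4, which drives amino acid supply genes under stress, rose by 0.72 (SE 0.09). Falls included Atf3 (-0.66, SE 0.09) and Nfe2l2, which encodes NRF2 (-0.46, SE 0.08). In the NF-κB list, 8 of 18 rose, led by Nfkbib (1.01, SE 0.12) and Nfkbiz (0.61, SE 0.07), and Rela rose by 0.37 (SE 0.08), while Rel fell beside Tnip3 (-0.31, SE 0.07). Interferon regulatory and STAT factors had 8 falls and 4 rises of 24, the rises 2 with the stricter filter. Irf5 changed by -0.42 (SE 0.09) and Stat5a by -0.57 (SE 0.06), and Stat3, at 0.15 (SE 0.06), did not pass. Hif1a rose by 0.31 (SE 0.06), and Nr1h3 (0.16, SE 0.07) and Myc (0.03, SE 0.09) did not pass.

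SMAD factors and corepressors rose in 8 of 21 cases. Besides Skil and Tgif1 these were, among others, Pmepa1, a TGF-β feedback inhibitor (0.98, SE 0.12), and the ubiquitin ligase Smurf1 (0.95, SE 0.07). Among the SMAD genes themselves, Smad2 (0.06), Smad3 (-0.05), Smad4 (-0.09) and Smad7 (0.11) did not pass. The one fall, Tgif2 (-0.18, SE 0.06), was lost when any single array of the media other than normal medium replicate 4 was left out. KLF and SP factors rose in 6 of 17 cases, including Klf4 (0.42, SE 0.08) and Klf3 (0.36, SE 0.08). In the ETS list Ets2 rose by 1.01 (SE 0.09). Helix-loop-helix factors gave Mlx, a partner of glucose-sensing factors, at 0.98 (SE 0.07) and Mxd4, an antagonist of MYC, at -0.9 (SE 0.16). Clock genes form a loop of activators and repressors. Arntl, which encodes the activator BMAL1, read 9.89, 9.75 and 9.74 in normal medium and 10.65, 10.58 and 10.66 in SCR medium, and Ciart, Per2 and Cry1 rose by 0.54 (SE 0.09), 0.45 (SE 0.07) and 0.38 (SE 0.06). The output gene Dbp read 8.55, 8.37 and 8.18 in normal medium and 7.53, 7.5 and 7.43 in SCR medium, the repressor Nr1d1 changed by -0.63 (SE 0.08) and Per3 by -0.43 (SE 0.06). With 6 rises and 6 falls of 18 clock genes, neither direction prevailed.

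Of 21 forkhead and SOX genes, 3 fell, Foxn3 (-0.4, SE 0.07), Foxk1 (-0.37, SE 0.08) and Foxo3 (-0.33, SE 0.08), and the rest did not pass. In the next group, of 15 GATA, TEAD, NFAT and MEF2 factors, 6 fell, among them Nfatc2 (-0.73, SE 0.07) and the osteoclast factor Nfatc1 (-0.55, SE 0.09), and the rest did not pass, though 1 rose without SCR medium replicate 3. Numbered zinc finger genes, the largest family at 312 tested, had 40 rises and 53 falls, 12.8% and 17.0%. Without SCR medium replicate 4 or normal medium replicate 4 the rises numbered 26, and the falls numbered 32 without SCR medium replicate 3 and 33 without normal medium replicate 2, while array weights gave 63 rises. Their changes ran from -0.7 (Zfp960) to 0.74 (Zfp523). Nuclear receptors and cofactors had 7 falls, including the glucocorticoid receptor gene Nr3c1 (-0.42, SE 0.08), and 3 rises of 27, with 8 rises under array weights.

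Cell cycle regulators fell in 13 of 30 cases and rose in 7. E2f8, a repressor of S phase genes, read 8.05, 8.3 and 8.06 in normal medium and 7.19, 7.3 and 7.19 in SCR medium. Rb1, the retinoblastoma gene, changed by -0.63 (SE 0.08), its relative Rbl2 by -0.55 (SE 0.07) and the CDK inhibitor Cdkn1b by -0.61 (SE 0.13), while Cdkn1a, which encodes p21, rose by 0.57 (SE 0.07). The promoter windows of E2f8 and Rbl2, shown as examples among cell cycle factors, hold TTTGAA, the cell cycle genes homology region, or, as here, its reverse complement TTCAAA, marked in capitals 20 bases before the start in E2f8 and 201 in Rbl2. The E2f8 window is chr7:48881597-48881846 on the minus strand and the Rbl2 window chr8:91069807-91070056 on the plus strand of GRCm38.p6, 250 bases before the RefSeq start.
E2f8: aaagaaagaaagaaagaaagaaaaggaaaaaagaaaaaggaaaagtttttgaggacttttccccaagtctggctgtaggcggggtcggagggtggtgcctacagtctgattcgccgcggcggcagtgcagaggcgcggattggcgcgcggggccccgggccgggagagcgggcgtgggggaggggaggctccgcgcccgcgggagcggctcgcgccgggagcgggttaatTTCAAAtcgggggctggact
Rbl2: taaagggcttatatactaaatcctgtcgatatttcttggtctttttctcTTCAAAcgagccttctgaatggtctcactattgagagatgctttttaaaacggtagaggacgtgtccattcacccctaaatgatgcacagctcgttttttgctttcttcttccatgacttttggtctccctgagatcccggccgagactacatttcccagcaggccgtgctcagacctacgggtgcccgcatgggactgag
TTTGAA was in 20.9% of the 230 windows of genes at least 2-fold lower, 11.3% of 177 at least 2-fold higher and 11.8% of 10446 in all. The E2F site GCGGGAA was in 3.04%, 6.21% and 6.33%. These shares carry no test, and E2f8 and Rbl2, which fell by less than 2-fold, are not among the 230.

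KO medium and SCR medium with CSH were set against the same 3 normal arrays, so the 3 comparisons share their controls and only the values are given side by side. Csf1r was at 11.9 ± 0.1 in SCR medium, 11.78 ± 0.22 in KO medium and 12.13 ± 0.39 with CSH, against 13.7 ± 0.12 in normal medium. Tlr4 was at 12.01 ± 0.12, 12.45 ± 0.23 and 11.84 ± 0.08 against 10.59 ± 0.06, and Il4ra at 10.35 ± 0.14, 10.97 ± 0.09 and 10.28 ± 0.14 against 8.08 ± 0.03. In each of these genes all conditioned media had means on the same side of normal medium. Slc7a11 was at 12.35 ± 0.23, 12.77 ± 0.07 and 12.36 ± 0.08 against 10.99 ± 0.04. Slc30a9 was at 11.71 ± 0.13, 11.75 ± 0.05 and 11.48 ± 0.15 against 10.51 ± 0.24. Mitf was at 10.28 ± 0.07, 10.2 ± 0.11 and 10.19 ± 0.06 against 11.23 ± 0.11. Ccr1 was at 9.96 ± 0.13, 10.71 ± 0.13 and 9.85 ± 0.19 against 6.35 ± 0.41, and Car6 at 13.64 ± 0.16, 13.8 ± 0.15 and 13.45 ± 0.32 against 9.0 ± 0.91. Differences among the conditioned media were not tested here.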

How the data were processed

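RNA of 12 RAW264.7 samples was hybridised to 1-colour Affymetrix arrays, biotin-labelled per the labels' protocols. The deposited table holds log2 signals that the authors made with RMA in Affymetrix Expression Console on mm10, per the submitters' processing notes. RMA includes a normalization between arrays, which can remove a shift shared by all genes, array medians in the table ran from 5.4 to 5.52, and the sources used here give no versions. The number of arrays limits the precision. Of 65528 probe sets, 31026 had 1 gene symbol in the platform table, 1470 had several and 33032 none listed, and the probe set with the highest mean stood for each of 30471 genes. Those above their array's median in at least 3 of 12 arrays (18121) entered limma 3.58.1 (R 4.3.3), all 4 groups in one fit with a mean-variance trend, and p-values were adjusted by Benjamini-Hochberg over all of them. The procedure was tested on simulated data. Genes named are the 4 largest non-overlapping called rises and falls a list, the 6 largest a class and a fixed set, 542 genes, and further ones named after values were seen. The comparison, its members and the lists were chosen with earlier results of these data known. Promoters are RefSeq windows of GRCm38.p6, matched by symbol for 10446 tested genes. Tables and figures used Python 3.11.15, pandas 2.3.3, numpy 2.4.6 and matplotlib 3.10.9. The 16 alternatives covered the filter, the choice of probe set, scaling, the fit and each array left out. Some items are not reported here.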

Additional observations from a re-analysis of the deposited data

How the results depend on the processing

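Against 6371 changed genes (3504 higher, 2867 lower), requiring a change beyond 1.5-fold in limma's treat test left 634, with 294 higher and 340 lower, which turned the balance of directions. The alternatives without a fold gave 5511 to 8155 changed, 2848 to 4515 higher and 2544 to 3640 lower. The upper ends came from array weights, whose estimation stopped before convergence and which gave SCR medium replicate 4 a weight of 6.16 against 0.534 and 0.393 for replicates 1 and 3. Leaving out each of the 6 arrays in turn gave 5400 to 6349 changed, 2791 to 3724 higher and 2365 to 2803 lower. The balance also turned without normal medium replicate 4 (2791 higher, 2803 lower). Rises made up 55% of changed genes in the main fit. This share was 51% without SCR medium replicate 1, 51.4% with quantile normalization and 58.7% without SCR medium replicate 3. The size of the excess of rises thus varied with the arrays kept and with the scaling. Replicate numbers 3 and 4 occur in both media, but deviations of same-numbered arrays correlated at -0.06 and -0.05, so the numbers were not taken as pairs, and the fit with the replicate block called 5861 (3107 higher, 2754 lower), with 3 falls in place of 6 among TGF-β family receptors and 7 rises in place of 11 among fatty acid oxidation enzymes, and a move of 1 member in 4 shorter counts. Of 536 named genes tested (498 under the stricter filter), 0 reversed in these limma alternatives. From 9 to 15 lost their call when an array was left out, 0 to 10 under the other alternatives without a fold, and 322 under the 1.5-fold test. Of 164 list counts, 7 to 13, 0 to 10 and 156 moved by over 1.5 times, respectively. Array medians lay at 5.4 to 5.52, and genes above them on fewer than 3 of the 12 arrays were not tested, so changes of dim genes are not described.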

Other observations

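Several genes outside the lists changed by more than 2-fold and were chosen after their values were seen. Il1a, an inflammatory cytokine, read 7.61, 7.54 and 7.67 in normal medium and 9.51, 9.62 and 9.87 in SCR medium. Il23a, a subunit of interleukin 23, rose by 1.25 (SE 0.12) and Il6 by 1.04 (SE 0.34). Cp, the ferroxidase ceruloplasmin, read 7.4, 7.97 and 7.33 in normal medium and 10.29, 9.88 and 10.11 in SCR medium. Hal, histidine ammonia-lyase, rose by 2.64 (SE 0.18). Igf1, the growth factor, read 11.76, 11.38 and 11.56 in normal medium and 9.21, 9.34 and 9.32 in SCR medium, and Txnip, which binds thioredoxin and limits glucose uptake, changed by -1.56 (SE 0.12). Close relatives took opposite directions in some families. The stress gene Gadd45a rose by 2.17 (SE 0.17) and Gadd45b changed by -1.94 (SE 0.12). Ms4a6d rose by 2.09 (SE 0.12) and Ms4a6c changed by -1.68 (SE 0.07). The survival genes Bcl2a1a (1.31, SE 0.09), Bcl2a1c (1.96, SE 0.09) and Bcl2a1d (1.42, SE 0.05) were all higher, and near-identical copies can share probe sequence, so their values may not be separate. The same holds for Selenbp1 (-2.0, SE 0.17) and Selenbp2 (-2.09, SE 0.17), which were lower.

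Large complexes were counted by gene symbol, also after values were seen and with no test. Of 20 Taf genes, which encode subunits of the general transcription factor TFIID and its relatives, 13 rose and 0 fell, with a median of 0.24. Of 28 Mediator genes 12 rose and 2 fell (median 0.14). Mitochondrial ribosomal genes of the large subunit had 16 rises and 2 falls of 47 (median 0.16), and those of the small subunit 11 and 4 of 28 (median 0.13). The Alg enzymes, which build the sugar chain for N-glycosylation, had 6 rises and 0 falls of 11 (median 0.36), and COMM domain genes 6 and 0 of 10 (median 0.26). All genes tested had 19.3% higher, 15.8% lower and a median of 0.02, and genes passing the stricter filter had 25.9% higher and 20.2% lower.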
